A study of Rattus norvegicus with 5 samples.

Results

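GABAergic amacrine cells of the rat retina were taken as droplets with at least 200 genes, at most 20% mitochondrial transcripts, at least 3 transcripts of Gad1 and Gad2 together, none of Slc6a9 and at least 1 transcript of the amacrine genes Tfap2a, Tfap2b, C1ql1, C1ql2, Slc32a1 and Pax6. The cells were thus chosen by measured counts of these genes. By this rule 505 of 32983 kept cells were GABAergic amacrine cells, or 1.53% with an exact 95% interval of 1.40 to 1.67%. Gad1 and Gad2 encode the enzymes that make GABA from glutamate, and Slc6a9 encodes the glycine transporter of glycinergic amacrine cells. The 9 genes of the rule chose the cells, so their levels are given as a description and were not tested.

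Amacrine cells are the interneurons of the inner retina, which receive input from bipolar cells and inhibit bipolar, ganglion and other amacrine cells in the inner plexiform layer. Those that release GABA include many wide-field types, and several carry a peptide as a second transmitter. GABA is made by the Gad enzymes, loaded into vesicles by the transporter encoded by Slc32a1, and taken up again by transporters of the Slc6a family. Starburst cells also release acetylcholine, and dopaminergic cells also release dopamine.

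Single-cell RNA sequencing had been carried out on retinas of Sprague Dawley (SD) rats, with 1 retinal specimen per library. Control rats (0 weeks) had received citrate buffer. Diabetic rats had received 1 intraperitoneal dose of 45 mg/kg streptozotocin, which destroys pancreatic beta cells, were included at a blood glucose above 200 mg/dL, and were then kept on food rich in fat and sugar for 2, 4 or 8 weeks. Control replicate 2 and the 3 diabetic libraries were analysed, and control replicate 1 was not analysed here. With 1 library per group, the effects of week, diet, animal, age and cell preparation cannot be separated, and no diabetic library could be tested against control. Intervals cover counting error only.

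The control library held 96 GABAergic cells, the 2-week library 191, the 4-week library 86 and the 8-week library 132, with medians of 6598, 4766, 7590.5 and 6737.5 unique molecular identifiers (UMIs, counted transcripts) per cell. All kept cells had medians of 1079.5, 1263, 939 and 1484 UMIs. No barcode was a GABAergic cell in more than 1 library, and 6 member barcodes were also present in another library. At exactly 3 UMIs of Gad1 and Gad2 stood 15 of the 505 cells, and 11 cells with 2 such UMIs met the rest of the rule and fell just outside. A further 142 cells had at least 3 UMIs of Gad1 and Gad2 but also carried Slc6a9, and they were left out.

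The share of GABAergic cells was highest at 8 weeks. It was 1.30% of kept cells in control (interval 1.05 to 1.58), 1.51% at 2 weeks (1.31 to 1.74), 1.02% at 4 weeks (0.819 to 1.26) and 2.89% at 8 weeks (2.43 to 3.42). The log2 ratio of the share to control was 0.22 (-0.14 to 0.59) at 2 weeks, -0.34 (-0.78 to 0.09) at 4 weeks and 1.16 (0.77 to 1.55) at 8 weeks. The 8-week interval thus lay above those of the other libraries. The intervals of the 2- and 4-week libraries did not overlap each other, and both overlapped that of control. With every cell thinned to 1000 UMIs the 8-week ratio was 0.67 (0.12 to 1.23). With at most 10% mitochondrial UMIs the 2-week ratio was 1.30 (0.82 to 1.81). A share counts recovered cells, and it depends on how many rods and other cells came through the same dissociation.

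**Figure D1:**
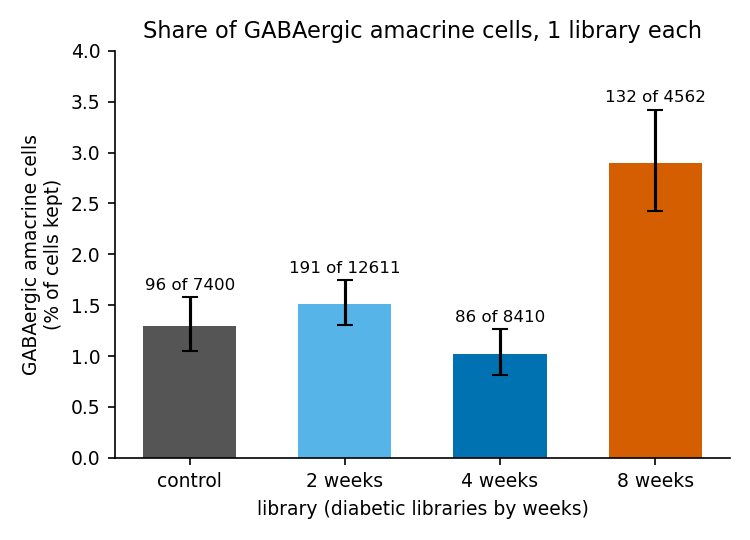
Share of GABAergic amacrine cells among kept cells in each library (percent, bars), with exact 95% binomial intervals and the numbers of cells above the bars. The 8-week bar, at 2.89%, stands above the intervals of the other 3 libraries.

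Gad1 and Gad2 were required by the rule and Slc32a1 was in its panel, so their levels only describe the cells chosen. Of the 505 cells 442 had both Gad1 and Gad2, 52 only Gad1 and 11 only Gad2. In counts per 1e6 UMIs of the GABAergic cells (CPM), Gad1 stood at 1768, 1504, 1545 and 1494 in the control, 2-week, 4-week and 8-week libraries. Gad2 stood at 700.4, 707.0, 579 and 735 CPM. Slc32a1, the vesicular transporter shared with glycinergic cells, stood at 462, 421, 550.3 and 432 CPM and was seen in 85.3 to 100% of cells. The log2 ratios of these 3 genes to control lay between -0.28 and 0.25.

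The transcription factor gene Tfap2b and the synaptic organiser gene C1ql2 were less even. Tfap2b was seen in 79.2% of GABAergic cells in control, 83.8% at 2 weeks, 55.8% at 4 weeks and 75.0% at 8 weeks, and stood at 1285, 1643, 733 and 1244 CPM. C1ql2 stood at 2575, 2237, 1207 and 1716 CPM in the same order. Both genes were therefore lowest in the 4-week library, where the Tfap2b interval of 44.7 to 66.5% of cells lay below those of the other libraries. C1ql1, a relative of C1ql2, was not lowest there, at 1912, 1498, 1947 and 1580 CPM. Rod droplets were kept cells with at least 5 UMIs over Gnat1, Nrl, Pde6a, Pde6b, Nr2e3 and Sag and no Gad1 or Gad2. This choice did not leave out other cell types. At 2 weeks the glycinergic gene Slc6a9 was seen in 780 of them and the endothelial gene Cldn5 in 385. Tfap2b was seen in 0.603, 1.11, 0.320 and 0.547% of rod droplets, at medians of 1110, 1056, 974 and 1341.5 UMIs.

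Markers of some other cell types were also present in the summed counts. Rod markers, given with the diabetic libraries below, were lower in GABAergic cells than in all kept cells of each library. Ganglion cell markers summed to 71.9, 395, 73.6 and 58.8 CPM in the 4 libraries, against 39.0, 162, 54.9 and 164 CPM in all kept cells, and were thus above all kept cells in 3 of them. At 2 weeks Sncg alone stood at 220 CPM, seen in 2 cells, of which 1 had 2 or more UMIs. Horizontal cell markers summed to 196, 229, 274 and 230.1 CPM, against 192, 258, 159 and 149 CPM. Among these markers Tpm3 alone stood at 115, 161, 150 and 145 CPM and Sept4 at 55.9, 57.6, 83.5 and 51.5 CPM. Onecut1 had 3 UMIs in the GABAergic cells of the 4 libraries together, and Onecut2 and Lhx1 had 0. Microglial markers summed to between 1.41 and 13.9 CPM and astrocyte markers to between 0 and 6.66 CPM. Müller glia markers summed to 1667, 1575, 1108 and 1408 CPM, against 5937, 3506, 5439 and 3860 CPM in all kept cells. Dkk3 alone stood at 976, 1036, 688 and 971 CPM and was seen in 92.4 to 96.3% of GABAergic cells. Glul stood at 108 to 236 CPM, Clu at 206 to 290 CPM and Apoe at 12.7 to 178 CPM. Rlbp1, Aqp4 and Slc1a3 each stood at 20.0 CPM or less in every library.

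Genes of starburst and dopaminergic amacrine cells were seen in few GABAergic cells. The acetylcholine genes Chat and Slc5a7 and the starburst genes Megf11 and Fezf1 had 0 UMIs in all 505 cells, which allows a share of up to 0.594% of cells with a UMI. Chat and Slc5a7 were also at 0 in the glycinergic cells and rod droplets of all 4 libraries, so whether these files could show them is not known. Among the other starburst markers, the vesicular acetylcholine transporter gene Slc18a3 had a UMI in 2 cells. Megf10 was seen in 3, 6, 6 and 0 cells, the transcription factor gene Isl1 in 0, 9, 2 and 3 and Sox2 in 2, 3, 0 and 1. Whether starburst cells were among the 505 was not tested. Th, which encodes the rate-limiting enzyme of dopamine synthesis, was seen in 5, 3, 1 and 6 cells. Of the other dopaminergic genes Ddc was seen in none and Slc6a3 in 1 cell.

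Peptide genes were uneven among the cells. Cartpt, which encodes the CART peptide, was seen in 50.0% of GABAergic cells in control, 45.5% at 2 weeks, 41.9% at 4 weeks and 55.3% at 8 weeks, and the 4 intervals overlapped. Cells with at least 1 UMI of Cartpt differed widely in level. Of the clusters described below, cluster 1 had it in 51.3% of cells at 265 CPM and cluster 3 in 96.1% at 14989 CPM. Tac1, the substance P gene, was seen in 18.8% (interval 11.5 to 28.0), 14.7% (9.97 to 20.5), 37.2% (27.0 to 48.3) and 21.2% (14.6 to 29.2). Vip, which encodes vasoactive intestinal peptide, was seen in 13.5, 5.76, 6.98 and 13.6%. Crh, the corticotropin-releasing hormone gene, was seen in 3 of 96, 3 of 191, 10 of 86 and 1 of 132 cells. Tac1 and Crh were thus most frequent at 4 weeks, with intervals that overlapped those of some other libraries. Cluster 7, described below, in which Tac1 and Crh were frequent, held 3.12% (interval 0.649 to 8.86) of the cells in control and 19.8% (12.0 to 29.8) at 4 weeks, and 54.8% of its cells came from the 4-week library. Rod droplets had lower median UMIs than GABAergic cells and could include other cell types. Among them Cartpt was seen in 0.674 to 3.03%, Tac1 in 0.202 to 0.603%, Vip in 0.0337 to 0.301% and Crh in at most 0.0506%. In the glycinergic amacrine cells compared below, Cartpt was seen in 49.2, 62.1, 43.1 and 35.1% of cells, so it was not particular to GABAergic cells. Tac1 was seen there in 0.676 to 5.91%, Vip in at most 0.806% and Crh in at most 0.625% of cells.

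**Figure D2:**
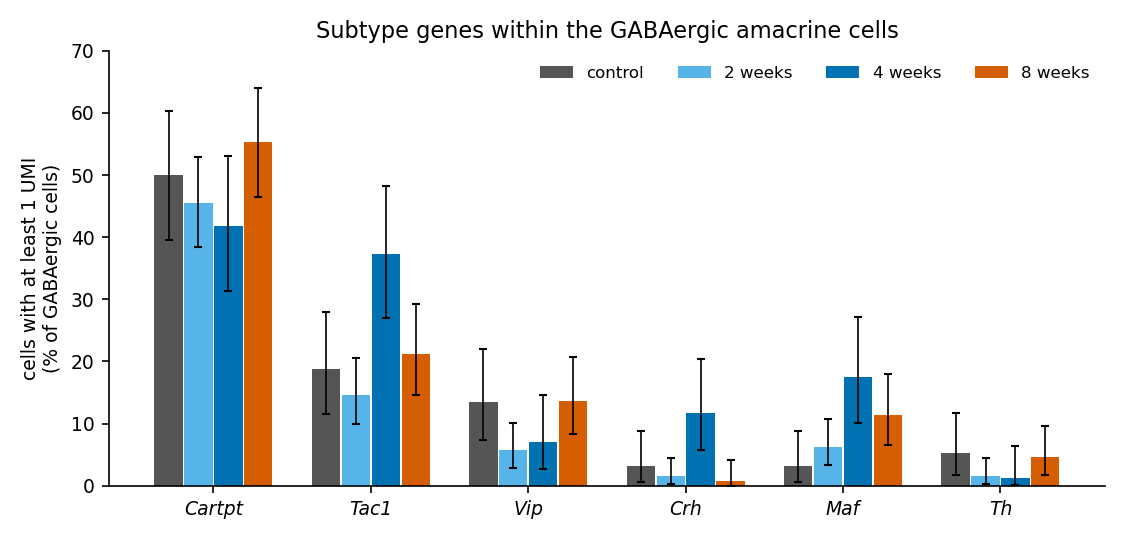
Percent of GABAergic amacrine cells with at least 1 UMI of each of 6 subtype genes in the 4 libraries, with exact 95% binomial intervals. Tac1 (37.2%) and Crh (10 of 86 cells) are highest in the 4-week library, and the 4 intervals of Cartpt overlap.

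Counted at 2 or more UMIs per cell, 44 of the 46 Vip cells also carried Cartpt and 20 carried Tac1, and none carried Crh or Maf. Of all 505 cells 188 carried Cartpt, 95 Tac1, 14 Crh and 22 Maf at that level. With so few Crh and Maf cells, their absence from the Vip cells says little. All 14 Crh cells carried Tac1. None of these Crh cells had C1ql2 or Tfap2b at that level, against 355 and 375 of all 505 cells. Vip thus lay within the Cartpt cells, and Crh within the Tac1 cells.

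Vip stood at 744, 397, 260.3 and 759 CPM. Its log2 ratio to control was -0.91 (-1.09 to -0.72) at 2 weeks, -1.51 (-1.76 to -1.27) at 4 weeks and 0.03 (-0.13 to 0.19) at 8 weeks. Tac1 stood at 849.6, 760.0, 1272 and 602 CPM, with ratios of -0.16, 0.58 and -0.50. Cartpt stood at 3497, 2391, 4073 and 6570 CPM, with ratios of -0.55, 0.22 and 0.91. Without the clusters 1, 2 and 5 described below, the 4-week ratios of Tac1 and Cartpt were 0.21 and -0.14. Crh stood at 17.3, 15.8, 130.2 and 9.46 CPM, a 4-week ratio of 2.86 (2.07 to 3.87). These UMIs came from few cells, 10 at 4 weeks, and 1 of them held 27.2% of the 4-week UMIs.

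Vip, Tac1 and Cartpt are shown with the 250 bases before their annotated starts, from RefSeq on the GRCr8 build, because these peptide genes were uneven among the GABAergic cells. Capitals mark TGACG or its reverse complement CGTCA, the core of the cyclic AMP response element, and the whole palindrome TGACGTCA where present. Vip lies on the plus strand (chr1:44470230-44470479), Tac1 on the plus strand (chr4:36645333-36645582) and Cartpt on the minus strand (chr2:32991236-32991485).
Vip: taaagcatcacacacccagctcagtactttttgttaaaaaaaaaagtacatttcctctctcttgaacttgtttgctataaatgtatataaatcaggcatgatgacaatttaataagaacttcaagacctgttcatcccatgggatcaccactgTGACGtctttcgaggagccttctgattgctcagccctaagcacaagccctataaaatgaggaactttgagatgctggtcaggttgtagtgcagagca
Tac1: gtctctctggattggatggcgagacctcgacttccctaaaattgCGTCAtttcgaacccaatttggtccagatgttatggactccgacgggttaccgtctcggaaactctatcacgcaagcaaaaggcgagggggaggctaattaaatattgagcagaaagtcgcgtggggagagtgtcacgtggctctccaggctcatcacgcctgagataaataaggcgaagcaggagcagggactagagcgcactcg
Cartpt: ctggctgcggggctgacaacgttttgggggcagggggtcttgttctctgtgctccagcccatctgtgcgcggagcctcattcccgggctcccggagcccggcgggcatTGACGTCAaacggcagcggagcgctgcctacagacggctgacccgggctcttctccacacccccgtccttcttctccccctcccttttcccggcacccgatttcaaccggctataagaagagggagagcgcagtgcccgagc
TGACG on either strand was present in 18.2% of the 33469 promoters of this length in the table and TGACGTCA in 1.59%, so that the Cartpt palindrome was the less common match. Each TGACGTCA also holds TGACG on both strands. A match is a stretch of letters, and no binding was measured here.

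Clustering the 505 cells by their 1000 most variable genes gave 13 clusters of 18 to 76 cells. The clusters are described and not tested, because they were formed from the counts of these same cells. Tfap2b and C1ql2 were seen together in nearly all cells of clusters 1, 2 and 5, where no cell had a UMI of Vip, Tac1, Maf or Coch. Cluster 3 (51 cells) held Cartpt in 96.1% and Vip in 47.1% of its cells, with Cbln1 and Sema6d among its leading genes. Cluster 9 (27 cells) held Vip in 70.4% and Cbln4, a synaptic organiser gene, at 1021 CPM. Cluster 11 (23 cells) held Cartpt in every cell, with Kit, Rprm and Slc35d3 leading.

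Cluster 7 (31 cells) held Tac1 in 96.8% and Crh in 51.6% of its cells, with Grp and Reln leading, and had no UMI of Tfap2b or C1ql2. Clusters 6 and 12 (41 and 22 cells) held Maf in 61.0 and 81.8% and Coch in 73.2 and 100% of their cells, with Tfap2b in 7.32 and 0%. Cluster 8 (30 cells) and cluster 10 (25 cells) held Crabp1, a retinoic acid binding protein gene, at 3876 and 4744 CPM. Cluster 13 (18 cells) held Calb1, the calbindin gene, in 88.9% and Gad2 in 33.3% of its cells. Cluster 4 (51 cells) had Ptgds and Eci2 among its leading genes.

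Several clusters were uneven between libraries, and a cluster mostly of 1 library may be that library and not a type. Cluster 2 was 82.8% and cluster 5 was 65.2% cells of the 2-week library, and cluster 5 had the rod genes Cdhr1, Slc24a1 and Sag among its leading genes. Cluster 1 held 34.4, 5.24, 9.30 and 18.9% of the GABAergic cells in the 4 libraries, and cluster 2 held 4.17, 27.7, 2.33 and 3.79%. Both had Bcl11a, Pou3f3 and Grin2c among their leading genes. Whether clusters 1 and 2 are 1 group of cells split by library was not tested. Clusters 1, 2 and 5 together held 42.7% of the GABAergic cells in control, 48.7% at 2 weeks, 17.4% at 4 weeks and 28.0% at 8 weeks. Ratios to control are given without these 3 clusters for some of the genes below.

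**Figure D3:**
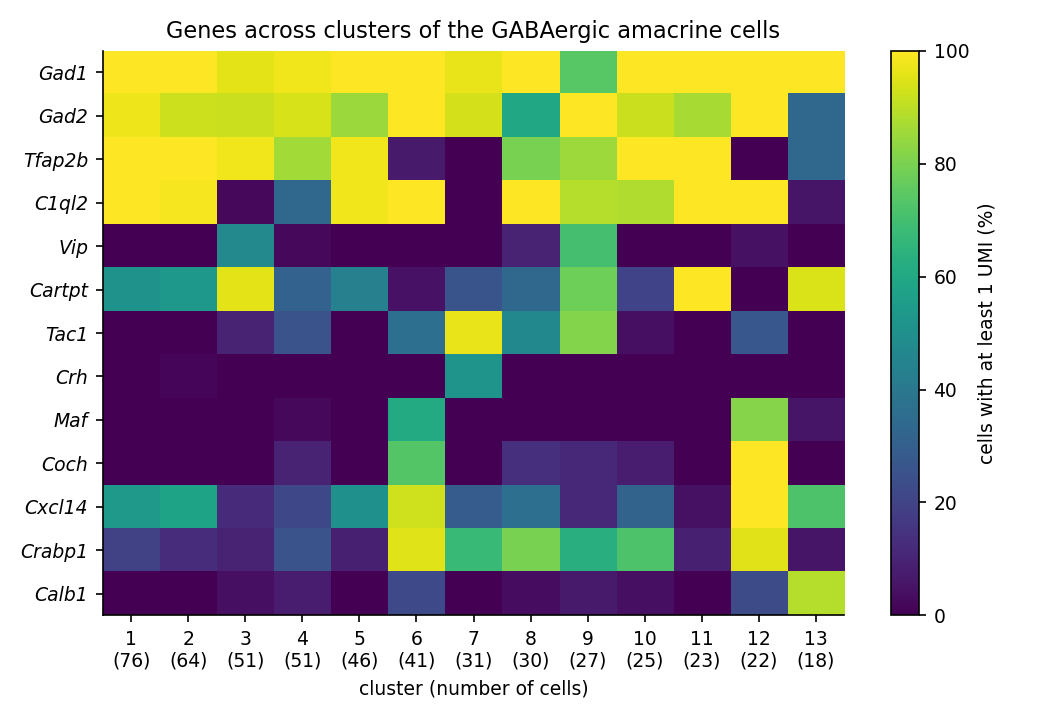
Percent of cells with at least 1 UMI of 13 genes (rows) in the 13 clusters of GABAergic amacrine cells (columns, with cell numbers). Crh is found mainly in cluster 7 (51.6%), Maf and Coch in clusters 6 and 12, and Calb1 in cluster 13 (88.9%).

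GABAergic cells were next compared with 804 glycinergic amacrine cells of the same 4 libraries, which had at least 2 UMIs of Slc6a9, none of Gad1 or Gad2 and at least 1 of the panel genes. UMIs were summed per library and class and tested with edgeR with the library as a block, so that n = 4 libraries, whose conditions differ. Of 7560 genes tested, 699 (9.25%) were higher and 478 (6.32%) lower in GABAergic cells at an adjusted p under 0.05. Without the control library these counts were 467 and 291, and without the library block 488 and 283.

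Among the genes with the largest differences toward GABAergic cells were Vip, Crabp1, Nppa and Cxcl14. Vip had 1892 UMIs in GABAergic and 1 in glycinergic cells, a ratio of CPM of 2428 (interval 435 to 95967; edgeR adjusted p = 1.89e-11). Crabp1 stood at 867 ± 289 CPM in GABAergic and 0.974 ± 1.27 CPM in glycinergic cells (SD, n = 4), a log2 difference of 9.41 with a standard error of 0.26 by edgeR. Nppa, the atrial natriuretic peptide gene, had 226 UMIs against 0 and was at least 96.7-fold higher, with the 0 set to 3 counts over the group. Cxcl14, a chemokine gene, stood at 530.5 ± 162 against 2.93 ± 2.69 CPM.

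The cerebellins, secreted proteins that link neurexins to postsynaptic receptors, were high in GABAergic cells. Cbln4 stood at 83.7 ± 8.87 CPM against 1 glycinergic UMI in all, Cbln2 at 90.0 ± 22.3 CPM against 2 and Cbln1 at 56.2 ± 17.1 CPM against 1. By edgeR the adjusted p values were 1.01e-08, 3.60e-08 and 1.15e-07. Efhc2, Pou3f3, Coch and Steap3 were likewise higher, with 1 to 3 glycinergic UMIs each. Pnmt, which encodes the last enzyme of adrenaline synthesis, was at 61.9 ± 73.9 CPM, and 92% of its 8-week UMIs lay in 1 cell.

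Among the genes with the largest differences toward glycinergic cells were Lamp5, Gabrd and Col18a1. Lamp5 stood at 25.3, 23.2, 24.0 and 18.9 CPM in GABAergic cells and at 2052, 1815, 1421 and 1226 CPM in glycinergic cells, a log2 difference of -6.10 with a standard error of 0.15 (edgeR adjusted p = 5.26e-12). Gabrd, the delta subunit of GABA-A receptors, had 2 UMIs in GABAergic and 481 in glycinergic cells, a ratio of 187 (51.6 to 1552) in favour of glycinergic cells. Col18a1 had 0 against 204 UMIs and was at least 52.98-fold higher in glycinergic cells. The transcription factor genes Ebf1 and Ebf3 stood at 1.66 ± 2.66 and 2.91 ± 4.92 CPM against 150 ± 58.6 and 104 ± 25.5 CPM. Drd2, a dopamine receptor gene, differed by -4.48 on the log2 scale. Ppp1r17, Nf1x, Cyp11b3, Rgs13 and Plce1 were also lower in GABAergic cells. Genes ranked by the size of this difference were named only where every library had the direction of the fit.

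**Figure D4:**
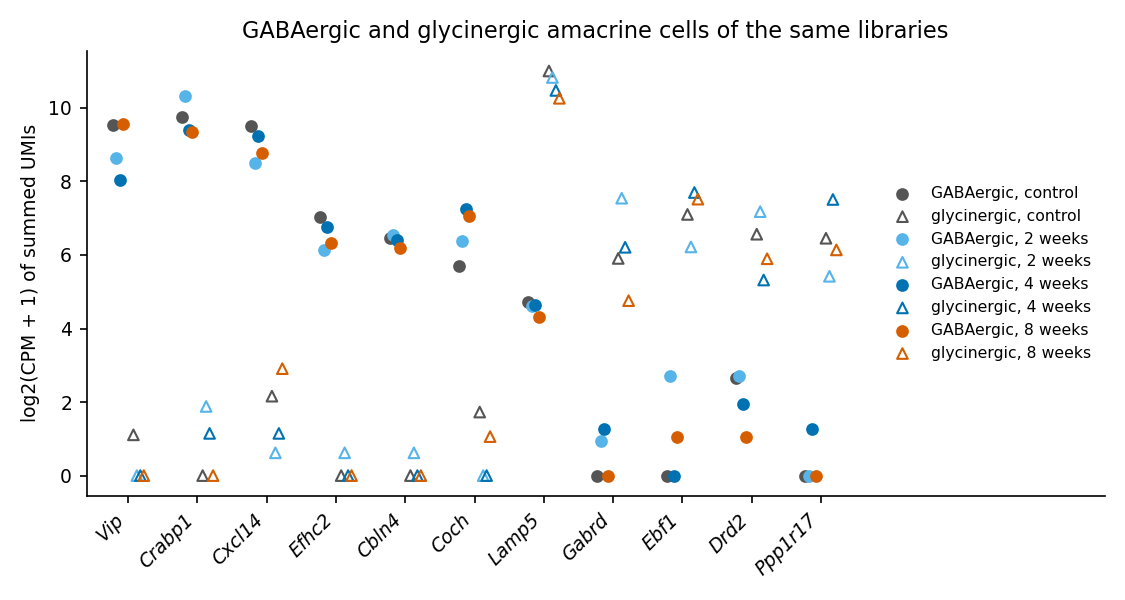
log2(CPM + 1) of 11 genes in GABAergic (filled circles) and glycinergic (open triangles) amacrine cells of the 4 libraries, coloured by library. The 2 classes do not overlap for any of these genes in any library, for example Lamp5 at 18.9 to 25.3 against 1226 to 2052 CPM.

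Counts in the gene lists stand against 9.25% higher and 6.32% lower of all genes tested. Of 8 tested genes of GABA synthesis, release and uptake outside the rule, 3 were higher and 1 was lower in GABAergic cells. Glul, the glutamine synthetase gene, differed by 1.02 (SE 0.13, edgeR adjusted p = 8.25e-05) on the log2 scale. Slc6a11, another GABA transporter gene, stood at 19.0 ± 5.42 CPM against 2 glycinergic UMIs in all. Aldh5a1, of GABA breakdown, was the gene that was lower, at -0.66. Of 8 GABA receptor subunits, Gabra2 (2.79), Gabra4 (1.97) and Gabbr2 (1.42) were higher and 2 were lower, Gabrd among them.

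Of 15 tested neuropeptide and peptide-processing genes, 8 were higher and 3 lower in GABAergic cells. Tac1 differed by 5.96, Gal, the galanin gene, by 3.09, Vgf by 2.75 and Scg2 by 1.82 on the log2 scale. Cartpt differed by 1.37 (edgeR adjusted p = 0.00942) and was higher in 3 of 4 libraries, since it stood at 3221 CPM in glycinergic cells of the 2-week library. Cpe, a peptide-trimming enzyme, and Chga were lower, at -0.84 and -0.59.

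Of 23 tested genes of neuronal structure, 14 were higher and 2 lower, against the same 9.25 and 6.32% of all genes. Gap43, a growth cone protein, differed by 2.64, Marcks by 2.42, Uchl1 by 2.37 and Basp1 by 1.59, whereas Stmn2 differed by -1.79 on the log2 scale. Of 23 vesicle release genes 7 were higher, among them Unc13b at 3.67 and Cplx2 at 1.61, and 3 were lower, among them Cplx1 at -1.85. Of 16 sodium and potassium channel genes 6 were higher and 4 lower. The potassium channel genes Kcna1 and Kcnc2 differed by 2.90 and 2.37 and the channel-associated Kcnip1 by 4.15, while the sodium channel gene Scn1a differed by -2.46.

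Of 14 tested genes of calcium channels and calcium-binding proteins 1 was higher and 5 were lower, against 9.25 and 6.32% of all genes. Calb2, the calretinin gene, differed by -3.82 and Pvalb, the parvalbumin gene, by -3.22. Among 12 tested amacrine transcription factor genes outside the rule, Meis2 (4.06), Nr4a2 (5.63), Zfhx3 (2.28) and Meis1 (1.63) were higher and 5 were lower, including Prox1 (-3.12) and Tcf4 (-3.31). The cadherin gene Cdh13 differed by 5.82 and Igfbp5, an IGF-binding protein gene, by 5.62. Of 15 tested rod genes, 10 were lower in GABAergic cells. The lists themselves were not tested.

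The last comparison set each diabetic library against control within the GABAergic cells. Genes were used at a mean of at least 20 CPM and at least 30 UMIs in the 2 libraries together. At 2 weeks 209 of 5707 genes (3.66%) were at least 2-fold higher and 79 (1.38%) at least 2-fold lower than control. At 4 weeks 185 of 5512 (3.36%) were higher and 103 (1.87%) lower, and at 8 weeks 123 of 5672 (2.17%) were higher and 37 (0.652%) lower. At all 3 times 35 of 5445 genes (0.643%) were higher and 1 (0.0184%), Gltpd2, was lower. The 3 comparisons share the control library.

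Most genes that were higher at all 3 times were less abundant in GABAergic cells than in all kept cells. This held for 32 of the 35, or 91.4%, against 39.7% of all genes used. The rod genes Gngt1, Pdc, Rcvrn and Cnga1 were among the 35. All 15 used genes of rod phototransduction were higher at each time, with median log2 ratios of 1.96, 1.14 and 1.28, against 0.06, 0.06 and 0.02 over all genes. Rod markers summed to 716 CPM in GABAergic cells of control and to 3352, 1560 and 1840 CPM in the diabetic libraries, and to 1904, 4300, 1255 and 7343 CPM in glycinergic cells. Their part in other ratios was not tested. Genes ranked by their ratio are therefore named below only where GABAergic cells held at least the CPM of all kept cells, and genes of lists that did not are given with both values.

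Among those genes Maf, Coch and Igfbp5 were higher in all 3 diabetic libraries. The transcription factor gene Maf stood at 9.32 CPM in the control library, from 3 cells, and at 26.01, 43.9 and 30.5 CPM, from 12, 15 and 15 cells. Its log2 ratios were 1.41 (0.25 to 2.92), 2.16 (1.02 to 3.66) and 1.63 (0.49 to 3.14). Coch, which encodes the matrix protein cochlin and marks the same clusters, stood at 50.6, 81.8, 151 and 132 CPM in 9, 17, 18 and 22 cells. The share of cells with Maf was 3.12% in the control library and 6.28, 17.4 and 11.4% in the diabetic libraries, so that the number of Maf cells moved with the level. Cluster 12, in which Maf and Coch were frequent, held 0 control cells and 11, 3 and 8 cells of the 2-, 4- and 8-week libraries. Cluster 6, the other such cluster, held 10, 6, 15 and 10 cells in the 4 libraries.

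Igfbp5 levels were 90.5, 214, 177 and 157 CPM in control and at 2, 4 and 8 weeks. Its log2 ratios were 1.23 (0.84 to 1.65), 0.96 (0.53 to 1.41) and 0.78 (0.37 to 1.23), and without clusters 1, 2 and 5 they were 1.62, 1.00 and 0.95. It was seen in 31.2% of control cells and in 30.9, 27.9 and 28.8% of diabetic cells, intervals that overlapped, while the CPM values were higher. In glycinergic cells it stood at 3.22 to 3.65 CPM.

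Srrm4, a splicing factor gene of neurons, stood at 47.9, 165, 109 and 74.6 CPM, with ratios of 1.77 (1.26 to 2.35), 1.17 (0.60 to 1.80) and 0.63 (0.04 to 1.26). Stx18, Vstm2b, Mpp6 and Zfhx4 were higher at the 3 times with ratios between 0.69 and 1.54. In all kept cells Srrm4 stood at 23.3, 81.7, 44.9 and 28.8 CPM, the same order of libraries.

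Lower at all 3 times were Sec14l3, Gltpd2, Bckdk, Hap1 and others. Sec14l3, a lipid-binding protein gene, had levels of 82.6, 1.86, 8.49 and 46.2 CPM in the 4 libraries and was seen in 38 of 96, 2 of 191, 6 of 86 and 33 of 132 cells. Its log2 ratios were -5.16 (-8.55 to -3.56), -3.18 (-4.78 to -2.08) and -0.83 (-1.43 to -0.26). Glycinergic cells stood at 86.7, 1.61, 20.7 and 43.4 CPM and all kept cells at 13.1, 0.548, 3.24 and 12.1 CPM, in the same order of libraries. The low values at 2 and 4 weeks were thus shared by the libraries as a whole.

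Hap1, which encodes a partner of huntingtin in vesicle transport, stood at 341, 216, 239 and 234 CPM, with ratios of -0.65 (-0.92 to -0.39), -0.51 (-0.80 to -0.23) and -0.54 (-0.81 to -0.28). Without clusters 1, 2 and 5 the Hap1 ratios were -0.97, -0.28 (-0.63 to 0.07) and -0.38, so the 4-week interval then included 0. Bckdk, the kinase of branched-chain keto acid breakdown, stood at 79.9, 29.7, 32.5 and 46.2 CPM. Gltpd2 stood at 97.2, 24.2, 32.5 and 28.4 CPM. Ppp2r3c, Anapc1, Rab3b and Asna1 were lower with ratios between -0.45 and -1.50. Without those clusters the Anapc1 ratio at 2 weeks was -1.94 (-3.48 to -0.71) in place of -0.93, and the intervals of Ppp2r3c included 0 at each time. Of the vesicle genes, Rab3a stood at 1515, 760.0, 989 and 1452 CPM, or -0.995 (-1.13 to -0.86), -0.62 (-0.75 to -0.48) and -0.06 (-0.18 to 0.05), and glycinergic cells had 1271.5, 677, 841 and 1057 CPM.

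**Figure D5:**
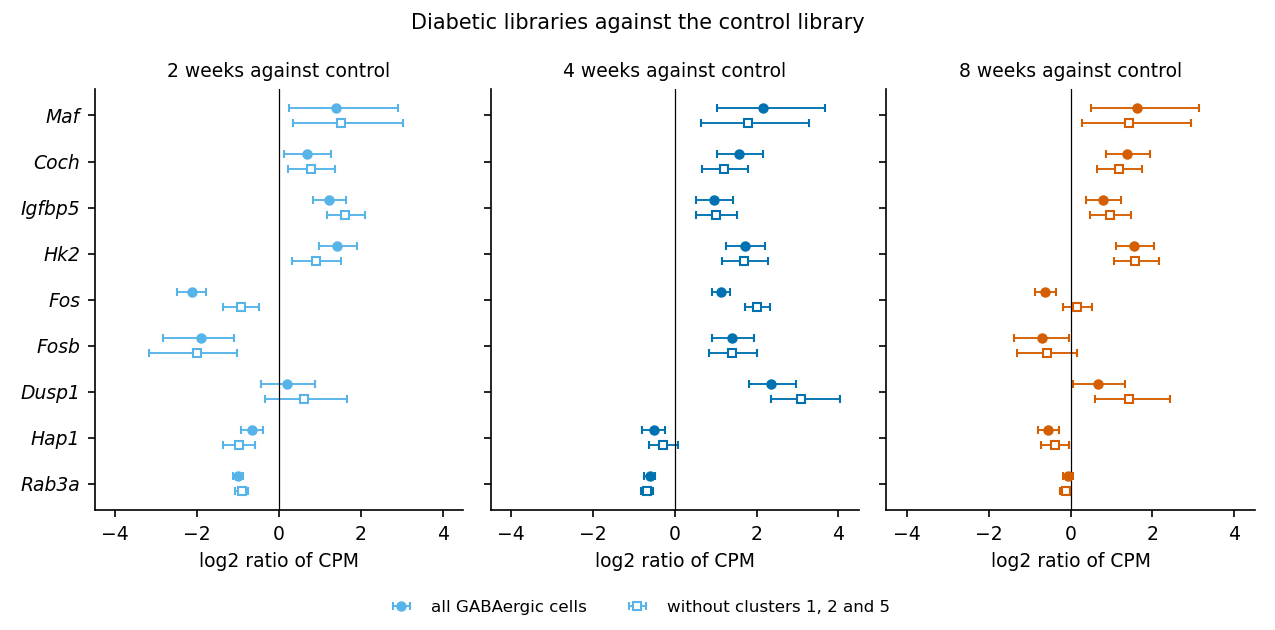
log2 ratio of CPM to control for 9 genes at 2, 4 and 8 weeks (panels) in all GABAergic amacrine cells (filled circles) and without clusters 1, 2 and 5 (open squares), with exact 95% intervals for counting error. Maf, Coch, Igfbp5 and Hk2 lie right of 0 in all 3 panels, and Fos lies left at 2 weeks and right at 4 weeks.

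Genes named at a single time often rested on few cells. Sncg, a ganglion cell gene, had no UMI in control and 220 CPM at 2 weeks, a log2 ratio of at least 5.78, and nearly all of these UMIs lay in 1 cell. Adcyap1, the PACAP gene, stood at 293 CPM at 2 weeks from 1 cell. Tac3, the neurokinin B gene, had no UMI in control and came from 2 cells each at 4 and 8 weeks. At 4 weeks Cdkn1c stood at 65.1 CPM from 8 cells and Spp1, the osteopontin gene, at 116 CPM from 17 cells, against 1.33 and 16.0 CPM in control. Lower at 4 weeks were Prr35 (-2.42), Grin2c (-2.05), Ddhd2 (-2.05) and Nrep (-1.89), of which Prr35 and Grin2c lead cluster 1. Without clusters 1, 2 and 5 the 4-week ratio of Grin2c was -0.29. At 8 weeks Anxa2 (2.25) and Usp25 (2.22) were higher and Arsa (-1.75), Pcdh17 (-1.65) and Tfpi (-1.56) lower. Anxa2 leads cluster 12, which held 0 control cells. Avp, the vasopressin gene, stood at 75.3 CPM at 2 weeks against 3.99 CPM, with 66.7% of its UMIs in 1 of 13 cells, and 1 cell held 92% of the 2-week UMIs of Rbp4. S100a7l2 was lower at 2 and 8 weeks (-3.59 and -2.76), and 69% of its control UMIs lay in 1 of 4 cells. At 2 weeks Sdf2l1 (-2.10), P2rx2 (-2.002) and Serpine2 (-1.90) were lower.

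Immediate early genes, whose transcripts rise within minutes of cell stimulation, were mostly higher than control at 4 weeks. Fos levels were 360, 82.7, 787 and 234 CPM in the 4 libraries, and it was seen in 46.9, 19.4, 62.8 and 34.8% of cells. Its log2 ratios were -2.12 (-2.48 to -1.77), 1.13 (0.92 to 1.34) and -0.62 (-0.88 to -0.36). Fosb followed the same order, at 59.9, 15.8, 160 and 36.8 CPM. Dusp1, a phosphatase gene that ends MAP kinase signalling, stood at 43.9, 51.1, 226 and 70.4 CPM, with a 4-week ratio of 2.35 (1.82 to 2.95). All kept cells held Dusp1 at 546, 577, 253 and 257 CPM, above the GABAergic cells in each library.

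Of 10 used immediate early genes 9 were higher than control at 4 weeks, and 7 had an interval above 0, against 55.6 and 10.8% of all genes. At 2 weeks 8 of 10 were lower and 4 had an interval below 0, against 7.89% of all genes. At 8 weeks 3 of 10 were higher, against 53% of all genes, and 2 had an interval above and 4 below 0, against 6.49 and 4.83%. The list medians were -0.27, 0.67 and -0.24. Without clusters 1, 2 and 5 they were 0.04, 1.46 and 0.50. Within these clusters alone, which held 15 cells at 4 weeks, they were -0.98, -0.39 and -1.32. At 4 weeks 3 of 10 genes were higher within these clusters, so the direction at each time depended on the cells taken. Fos stood at 698 CPM inside and 207 CPM outside these clusters in control, and at 385 and 834 CPM at 4 weeks. In glycinergic cells the list medians were 0.02, 0.86 and 0.52, and in kept cells outside the GABAergic class -0.14, -0.92 and -0.74.

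Genes of GABA synthesis, release and uptake outside the rule had medians of 0.23, -0.06 and 0.12 over 7 used genes. Glul stood at 236, 124, 108 and 167 CPM, or -0.93, -1.13 and -0.50. In all kept cells, where Müller glia carry most of it, Glul stood at 951, 390, 638 and 477 CPM. Gabra2 was higher at 8 weeks, at 0.86 (0.35 to 1.41), with 59.9, 71.5, 46.7 and 109 CPM. The AMPA receptor gene Gria2 stood at 217, 356, 324 and 264 CPM, with ratios of 0.71 (0.44 to 0.99), 0.58 (0.28 to 0.88) and 0.28 (-0.01 to 0.57).

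Genes of neuronal structure were mostly higher at 2 weeks, with 20 of 23 above control and a median of 0.36. Of these genes 11 had an interval above 0. Over all genes the shares were 55.3% above control and 14.5% with an interval above 0. Without clusters 1, 2 and 5 the 2-week median was 0.52. Within these clusters alone it was -0.09, with 9 genes higher and 14 lower. Map1b, a microtubule protein gene, stood at 316, 495, 587 and 471 CPM and Gap43 at 112, 163, 195 and 156 CPM. Map1b stood at 769.8 to 1208 CPM in all kept cells. A cell of 49991 UMIs at 2 weeks weighed on this list: without the cell with the most UMIs in each library, the 2-week median was 0.16 and the ratio of Nefl, a neurofilament gene, was -0.17 where it had been 1.62. Ganglion cell markers also summed to 395 CPM at 2 weeks, against 58.8 to 73.6 CPM in the other libraries. The list medians at 4 and 8 weeks were 0.22 and 0.01. In glycinergic cells they were -0.14, 0.18 and -0.11.

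Nuclear-encoded genes of oxidative phosphorylation were slightly lower at 4 weeks. Of 28 used genes 24 were below control, whereas 55.6% of all genes were above it, and 11 had an interval below 0, against 8.22% of all genes. The median was -0.18, and 27 of 28 were below control without clusters 1, 2 and 5. Ndufa5, of complex I, had a 4-week ratio of -0.54 (-0.80 to -0.28), Ndufb8 of -0.46 and Atp5mc1, of the ATP synthase, of -0.42. The medians at 2 and 8 weeks were 0.06 and -0.07. In kept cells outside the GABAergic class the 4-week median was 0.26, and in glycinergic cells it was -0.15.

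Of the glycolysis genes Hk2, hexokinase 2, was at least 2-fold higher at all 3 times, at 66.6, 179, 221 and 196.5 CPM. It stood at 1396 to 2703 CPM in all kept cells. The medians of the glycolysis list were -0.16, 0.15 and -0.02. The class I histocompatibility gene RT1-CE10 stood at 18.6, 95.7, 65.1 and 67.3 CPM, against 248 to 690 CPM in all kept cells. In glycinergic cells it stood at 74.0, 77.8, 77.8 and 133 CPM. Rod transcripts were higher in the same libraries, as given above, and their part in these 2 results was not tested.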

How the data were processed

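The authors deposited raw UMI counts per gene and barcode for 25399 genes; Cell Ranger 3.0.1 and the Rnor_6.0 build are named per the submitters' processing notes, and no normalization was applied to these deposited counts. From them the GABAergic amacrine cells were chosen by the stated rule, and their UMIs were summed per library (750979, 1076368, 706877 and 951649 UMIs in the 4 libraries) and scaled to CPM. Every barcode held at least 500 UMIs. Single genes at low CPM therefore rest on few UMIs, and intervals show this counting error only.

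Ratios to control are log2 values with 0.5 counts added, with exact conditional binomial 95% intervals. A sum of 0 was set to 3 counts. Shares carry exact (Clopper-Pearson) intervals. GABAergic and glycinergic sums were tested with edgeR 4.0.16 (quasi-likelihood, TMM, R 4.3.3) with library as a block, Benjamini-Hochberg adjusted over all genes, at a threshold of 0.05. The rule genes stayed out of its counts. On counts simulated from these libraries, edgeR and the intervals were tested first. The simulated counts were drawn independently per gene, so they did not hold UMIs gathered in single cells. Cells were clustered with scanpy 1.11.5 and leidenalg 0.10.2 (1000 variable genes, 15 components, 15 neighbours, resolution 1.0). Doublets were scored with Scrublet and kept. The top-scoring 0.8% per 1000 barcodes held 6, 31, 5 and 12 GABAergic cells, and were removed in an alternative, because the automatic threshold called at most 4 cells per library.

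Genes were named by rank. For all 3 times together these were 8 higher and 8 lower genes, ordered by their weakest ratio, and for a single time the 4 top and 4 bottom genes not already chosen. Each has an interval that excludes 0 and at least the CPM of all kept cells where it is higher. Added are the 12 highest and 12 lowest edgeR differences (mean CPM of at least 50, same direction in 4 libraries), up to 4 members per list, and subtype genes. Genes without a symbol, ribosomal and mitochondrial genes were not named. Other genes given (such as cluster leaders, the rod genes and list members beyond 4) were chosen after their values were seen. The members and the 25 gene lists were chosen with earlier results of these data known. Promoters came from RefSeq (GRCr8), matched by symbol; 3 of the 4 peptide genes described have an entry. Results for some genes are not reported here.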

Additional observations from a re-analysis of the deposited data

Results flagged for a closer look

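The search took genes named by rank of their ratio to control and subtype genes, outside the rule. The 3 genes given below were past 2-fold in GABAergic cells and went the opposite way in glycinergic cells of the same library pair. Their intervals for counting error did not reach 0. Genes named only as list members were not searched. Among those, all 15 used rod phototransduction genes were higher at 4 weeks in GABAergic cells and lower in glycinergic cells. These differences were not tested, because each group has 1 library. Gltpd2 at 4 weeks was -1.56 in GABAergic and 0.95 in glycinergic cells. Avp, the vasopressin gene, at 8 weeks was 2.06 and -1.95, and it was seen in 10 GABAergic cells there. Pvalb at 4 weeks was 1.71 and -0.77, and it was seen in 3 GABAergic cells of control and 9 at 4 weeks. At 2 weeks Pvalb was higher than control in both classes, at 90.1 against 16.0 CPM and 1048 against 414 CPM.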

How the results depend on the processing

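No paired analysis was possible because the groups compared with control have 1 library each. With at most 10% mitochondrial UMIs the share ratio was 1.30 at 2 weeks. Thinning cells to 1000 UMIs gave 0.67 at 8 weeks. Genes at least 2-fold higher and lower were, at 2, 4 and 8 weeks, 88 and 36, 30 and 30, and 28 and 14 with thinned cells, and 24 and 13, 15 and 14, and 13 and 1 at a mean of at least 100 CPM. A threshold of 1.5-fold gave 733 and 392, 703 and 409, and 493 and 241, and one of 3-fold gave 55 and 24, 34 and 20, and 25 and 8. At all 3 times 4, 7, 124 and 8 genes were higher under these settings, 13 with at most 10% mitochondrial UMIs and 12 with doublets removed. Fewer cells, UMIs or genes enter the first 2 settings. Of the lists, 9 and 7 had a median above 0 at 8 weeks with thinned cells and at 100 CPM. The edgeR counts of higher and lower genes were 143 and 124 with thinned cells, 283 lower without the library block, 271 lower by DESeq2, 894 lower without a filter on low counts, and 467 to 675 higher and 291 to 525 lower with a library left out. Calls of the 24 named genes were kept in all 265 comparisons that had a value, of which 7 were with thinned cells. These genes were chosen for the largest differences in the same data. Vip cells were 2.33% at 4 weeks with at most 10% mitochondrial UMIs. Tac1 cells were 51.2 and 31.1% at 4 and 8 weeks with that filter and 25.6 and 14.4% with thinned cells. Cartpt cells were 27.1, 24.9 and 29.1% in control, at 2 and at 4 weeks with thinned cells, and 39.6 and 30.9% in control and at 2 weeks at 2 or more UMIs. Crh was at 0 in control and at 8 weeks with the mitochondrial filter, and at 8 weeks with at least 5 Gad UMIs. Direction turned for Sag at 8 weeks with thinned cells (-0.13), for the histocompatibility list at 8 weeks at 100 CPM (-0.85) and for Nefl at 2 weeks without the largest cell of each library (-0.17), an alternative chosen after seeing the data. The cause was not tested. Of the planned ratios of named genes, 2799 stayed within their interval, 226 moved and 1 turned; a gene under the minimum in a setting has no value there. With at most 191 GABAergic cells per library, the intervals of rare subtypes are wide.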
